A study of Mus musculus with 2 samples.

Results

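The machinery that takes new secretory and membrane proteins into the endoplasmic reticulum (ER) was described in the mRNA of cells labelled as mouse neonatal cardiomyocytes. Its 35 genes were chosen by symbol as subunits of the signal recognition particle (SRP) and its receptor, the SEC61 channel with its partners, the translocon-associated protein complex (TRAP), signal peptidase and the oligosaccharyltransferase (OST). All 35 had values, on 36 lines of a table of 10992 lines and 10982 gene symbols, and all 35 passed the minimum of 1 FPKM in the higher library that was asked of each gene. Of the 2 libraries, 1 is titled negative control and 1 knockdown of FERPIR (DQ69304) by an antagomir. FERPIR is labelled a piRNA, a class of short RNAs bound by PIWI proteins, and an antagomir is a modified oligonucleotide made to pair with a short RNA and block it. The labels give heart as the tissue, cardiomyocyte as the cell type and PBS as a treatment for both samples, with no strain, age or time. Each group had 1 library, so differences have no replicate check, no test was made and each value describes these 2 libraries.

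A protein bound for the ER is recognised by its signal sequence as it leaves the ribosome. SRP binds the sequence, slows elongation and docks at its receptor on the ER membrane, and the ribosome is handed to the SEC61 channel. TRAP and the TRAM proteins sit beside the channel, signal peptidase cuts the signal sequence off, and OST moves a preassembled glycan onto asparagine residues of the chain. Secretory cells and matrix-producing cells carry a heavy load on this route, and many of its genes are known targets of the unfolded protein response.

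Values were FPKM, fragments scaled to transcript length and library total, so levels of different genes are per length. The log2 ratio below is log2 of (antagomir FPKM + 1) over (control FPKM + 1), and a fold is on the same scale. Values are given with the control first and the antagomir second. All 10982 genes together reached 295404 and 312806 FPKM, with an unknown sequencing depth. Of 18 cardiomyocyte markers 5 had a value, summing to 27.3 and 50.7 FPKM, and Myh6, Myh7, Actc1, Actn2 and Ttn were among the 13 without one. The troponin mRNA Tnnt2, at 1.48 and 8.19 FPKM, was one of the 5, so the labelled cell type rests here on few of its defining markers. Each gene of the table had at least 0.5005 FPKM in its higher library, and genes without a value were not analysed here. Of 11 fibroblast markers 7 had a value, summing to 1203 and 1071 FPKM, with 5 of the 7 lower under the antagomir. Vim, which holds most of that sum, was higher, at 655 and 730 FPKM, and so was Pdgfra, at 1.19 and 1.66 FPKM. Of 4 smooth muscle markers 3 had a value, summing to 1325 and 885 FPKM, with 1 of the 3 lower (Acta2, which holds most of the sum) and Tagln and Cnn1 higher. Of 4 erythroid markers 1, Hba-a1, had 10.2 and 11.5 FPKM. None of 5 endothelial markers and 1 of 5 macrophage markers, Lyz2 at 3.28 and 4.44 FPKM, had a value. The fibroblast collagen mRNA Col1a1, at 58.5 and 24.2 FPKM, lay in the same direction as most of the subunits below, and its part in the result was not tested. In bulk RNA fewer cells of a type and less RNA per cell cannot be told apart.

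Most of the subunit genes were lower in the antagomir library. The log2 ratio was below 0 in 25 of 35 (71.4%), against 54.0% of the 10201 genes tested. At a limit of 1.5-fold, 11 of 35 (31.4%) were lower, against 13.4% of all genes, and 3 of 35 (8.57%) were higher, against 10.8%. At 2-fold 2 of 35 (5.71%), Srprb and Stt3b, were lower, against 3.79% of all genes, and 0 of 35 were higher, against 2.88%. The median log2 ratio was -0.42 over the 35 genes and -0.048 over all genes. By complex the medians were -0.59 for OST, -0.49 for SEC61 and its partners, -0.46 for SRP and its receptor, -0.30 for TRAP and 0.14 for signal peptidase. The summed level of the 35 genes was 1751 and 1534 FPKM.

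**Figure D1:**
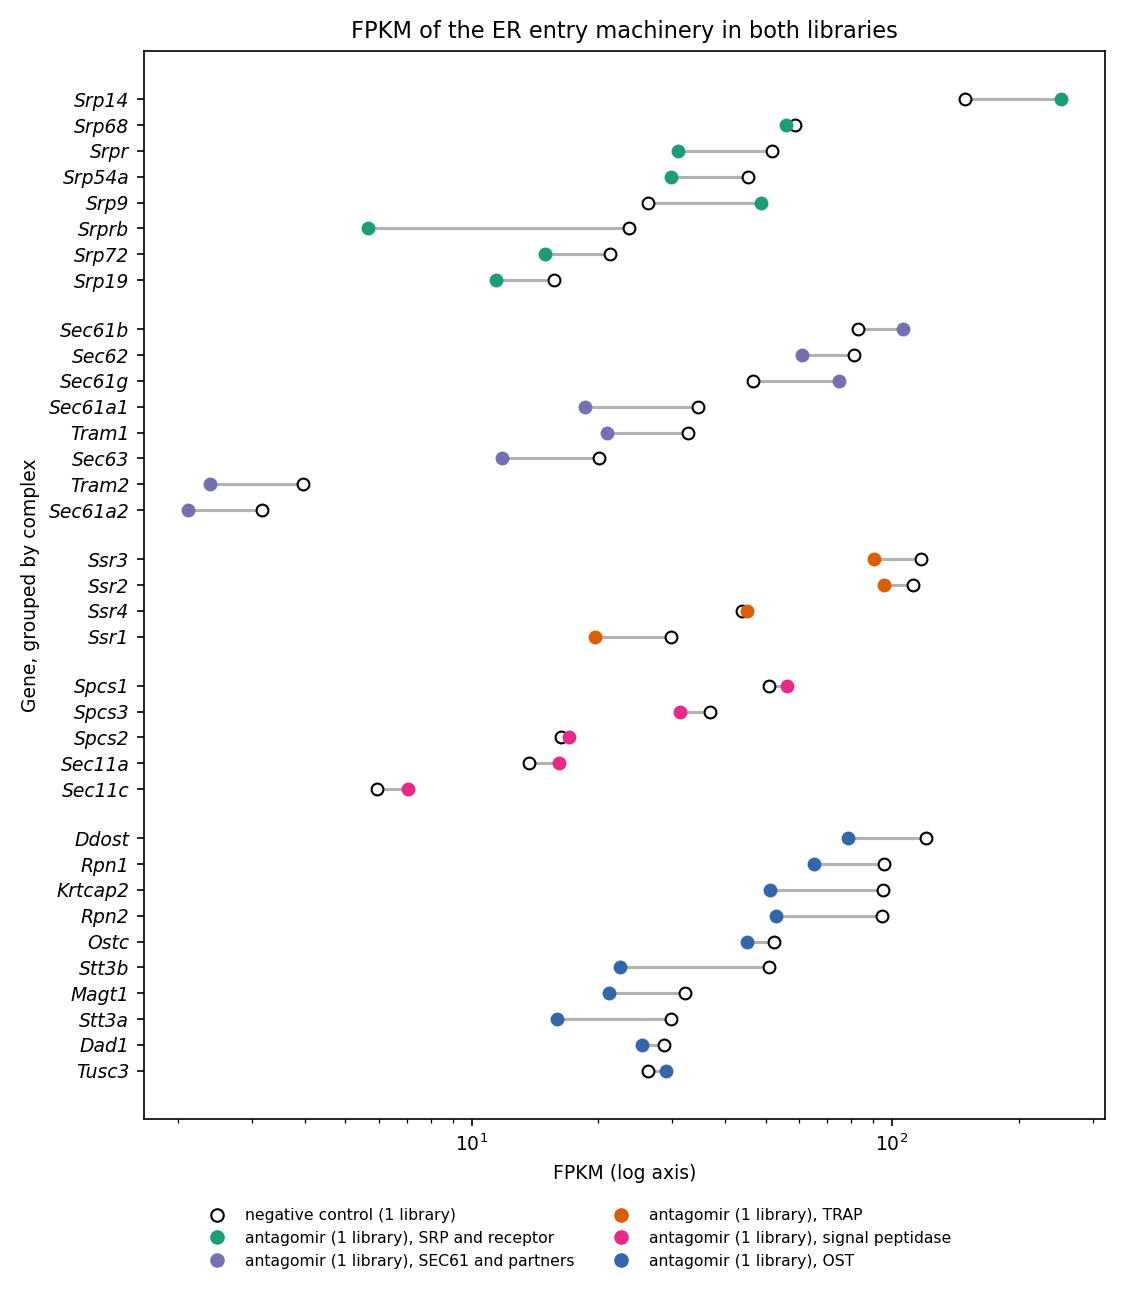
FPKM of each of the 35 genes (log axis) in the negative control library (open circles) and the antagomir library (filled circles, coloured by complex), with genes ordered by control level within each complex. Most filled circles lie left of the open ones, as for Srprb at 23.7 and 5.65 FPKM, and those of Srp9, Srp14, Sec61g and Sec61b are among the 10 that lie to the right.

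In the SRP the particle's ends differed. SRP9 and SRP14 form a heterodimer that binds the Alu domain of the particle's RNA and slows elongation. Srp9 had 26.3 and 48.7 FPKM, 1.82-fold higher under the antagomir, the highest log2 ratio of the 35 genes at 0.86. Srp14 had 149 and 252 FPKM, 1.68-fold higher, and was the most abundant of the 35 per length in both libraries. Both genes have short coding sequences, and with the trend over coding length described below removed both were under 1.5-fold higher. With the trend over longest transcript length and GC removed, Srp9 was at a log2 ratio of 0.94 and Srp14 at 0.33. With that over principal transcript length and GC removed they were at 0.75 and 0.42, so Srp9 stayed past 1.5-fold in both. Genes for proteins of the other domain, which reads the signal sequence, had log2 ratios below 0. Srp54a, whose protein is the GTPase that holds the signal sequence, had 45.4 and 29.8 FPKM, 1.51-fold lower. Srp72 had 21.4 and 14.9 FPKM, a log2 ratio of -0.49, Srp19, whose protein helps the particle's RNA to fold for SRP54, had 15.7 and 11.4 FPKM, a log2 ratio of -0.43, and Srp68, whose protein pairs with SRP72, had 58.8 and 55.9 FPKM, a log2 ratio of -0.072. Thus the 6 genes of the particle ran from 1.82-fold higher to 1.51-fold lower, with the Alu-domain pair at the upper end.

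The Srp54a value joins 2 table lines on chromosome 12. The first, at 55080262 to 55115367, had 20.2 and 12.7 FPKM, and the second, at 55155104 to 55189573, had 25.2 and 17.1 FPKM. GENCODE release M21 calls the second locus Srp54b, and it calls Srp54c the locus at 55230168 to 55263836 that the table lists as Srp54b, with 36.6 and 25.8 FPKM. The coding sequences of the first and second loci are 100% identical over 1512 nucleotides, and the third is 99.6% identical to each. How reads were shared among the 3 copies is therefore uncertain. Summed over all 3, SRP54 mRNA had 82.0 and 55.7 FPKM, 1.47-fold lower, so all 3 lines and their sum lay in the same direction.

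Both receptor subunits were lower. SRPRA, encoded by Srpr, is the GTPase that meets SRP54, and Srpr had 51.8 and 31.0 FPKM, 1.65-fold lower. SRPRB is the GTPase of the membrane that anchors it, and Srprb had 23.7 and 5.65 FPKM. This was 3.71-fold lower, the lowest log2 ratio of the 35 genes at -1.89, and 0.42% of all genes tested were lower still. Srprb lies on chromosome 9 at 103188032 to 103202137, and Stt3b, next to it in the order of log2 ratios, also lies on chromosome 9. Exons of Srprb overlap those of Gm20425, an annotated read-through gene with no value in the table used here, and exons of Srpr overlap Fam118b (4.81 and 2.94 FPKM) and Tirap (1.62 and 1.76 FPKM). Whether reads of these genes were told apart is not given in the sources used here. Srpr was 2.19 times as abundant as Srprb per length with the control, and 5.48 times with the antagomir.

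In the channel the pore gene was lower and the small subunits, as measured, were higher. SEC61A1 forms the pore through which the chain passes, and Sec61a1 had 34.6 and 18.6 FPKM, 1.82-fold lower. The small subunits clamp and flank the pore. Sec61g had 46.6 and 74.8 FPKM, 1.59-fold higher (a log2 ratio of 0.21 with the coding length trend removed), and Sec61b had 83.0 and 106 FPKM, 1.28-fold higher. The sign of Sec61b depended on the setting, at -0.19 with the trend over longest transcript length and GC removed and at -0.10 with that over principal coding length removed. Sec61a2, the less abundant copy of the pore gene, had 3.17 and 2.11 FPKM, the lowest level of the 35 genes in both libraries. Its coding sequence is 78.4% identical to that of Sec61a1, with no shared run over 26 nucleotides, and its exons overlap Nudt5.

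The partners that help chains into the channel were all lower. SEC63 recruits the chaperone BiP to the channel by its J domain, and Sec63 had 20.1 and 11.8 FPKM, 1.64-fold lower. Sec62, whose protein works with SEC63 on short chains and is also a receptor for ER autophagy, had 81.4 and 61.1 FPKM, a log2 ratio of -0.41. Tram1, whose protein contacts signal sequences in the membrane, had 32.7 and 21.01 FPKM, 1.53-fold lower. Tram2, linked to collagen synthesis, had 3.97 and 2.38 FPKM, a log2 ratio of -0.56. The 8 genes of the channel and its partners summed to 305 and 298 FPKM, while 6 of the 8 had log2 ratios below 0, against 54.0% of all genes.

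TRAP helps substrates with weak signal sequences to open the channel. None of its 4 genes reached 1.5-fold in either direction. Ssr1 came nearest, with 29.8 and 19.6 FPKM, 1.49-fold lower. Ssr3 had 117 and 90.8 FPKM and Ssr2 had 112 and 95.7 FPKM, log2 ratios of -0.37 and -0.23. Ssr4 had 44.0 and 45.1 FPKM, a log2 ratio of 0.035, so the order of the log2 ratios ran from Ssr1 up to Ssr4.

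Signal peptidase was the one complex with a median above 0, and its ratios were small. SEC11A and SEC11C are alternative catalytic subunits. Sec11a had 13.7 and 16.1 FPKM and Sec11c had 5.94 and 7.04 FPKM, both 1.16-fold higher, so that Sec11a was 2.30 times as abundant as Sec11c with the control and 2.29 times with the antagomir. Spcs1, whose product narrows the enzyme's choice of substrates, had 51.0 and 56.2 FPKM, and Spcs2 had 16.3 and 17.02 FPKM. Spcs3, needed for the enzyme's activity, had 36.8 and 31.3 FPKM, a log2 ratio of -0.23, and its exons overlap Asb5, which had 166 and 89.0 FPKM. The other complexes had medians below 0 in each setting tried, and that of signal peptidase did not keep its sign, turning to -0.071 with the trend over coding length removed.

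**Figure D2:**
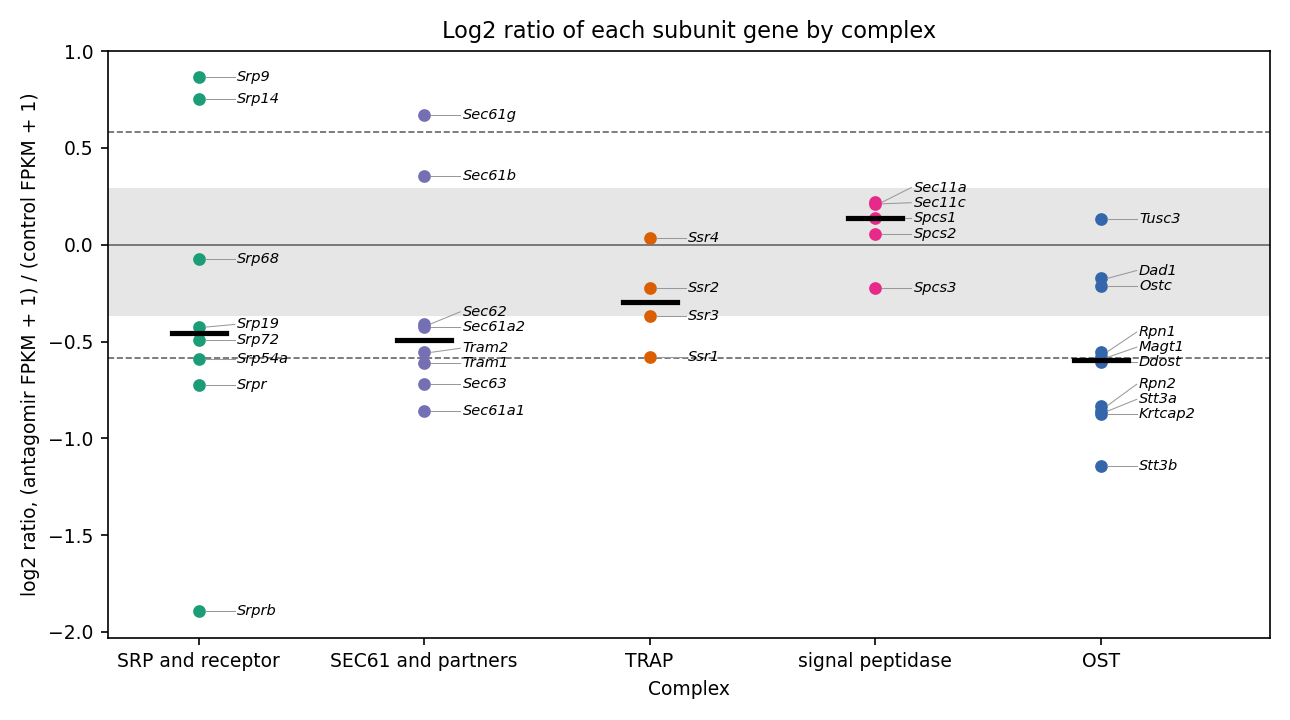
Log2 ratio of each subunit gene (points) by complex, with black bars at the medians, dashed lines at 1.5-fold and a grey band for the middle 50% of all 10201 genes tested. OST has the lowest median at -0.59 and signal peptidase the only one above 0, at 0.14, while the SRP and its receptor together spread from -1.89 for Srprb to 0.86 for Srp9.

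OST had the lowest median at the pseudocount of 1 FPKM, and at 0.01 FPKM its median and that of SEC61 and its partners were both -0.61. Of its 10 genes 9 had log2 ratios below 0, against 54.0% of all genes. Its catalytic subunits come in 2 forms, STT3A, which works on chains as they pass the channel, and STT3B, which glycosylates sites that were skipped. Stt3b, on chromosome 9 at 115242581 to 115310421, had 50.9 and 22.5 FPKM, a log2 ratio of -1.14. Stt3a had 29.8 and 15.98 FPKM, 1.81-fold lower. Both forms were thus lower, and the level of Stt3b over Stt3a was 1.71 with the control and 1.41 with the antagomir. Their coding sequences are 63.2% identical, with no shared run over 18 nucleotides.

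Among subunits shared by both forms, Rpn2 had 94.7 and 52.8 FPKM, 1.78-fold lower, and Ddost, whose product holds the complex together, had 120.4 and 78.7 FPKM, 1.52-fold lower. Rpn1, for ribophorin I, had 95.9 and 65.1 FPKM, 1.47-fold lower. Dad1, named for the cell death that follows its loss, had 28.7 and 25.4 FPKM, a log2 ratio of -0.17.

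Subunits that belong to one form only differed among themselves. KRTCAP2 and OSTC belong to the STT3A form and join it to the channel. Krtcap2, on chromosome 3 at 89245966 to 89249906, had 95.04 and 51.3 FPKM, 1.84-fold lower, and Ostc had 52.3 and 45.1 FPKM, 1.16-fold lower. MAGT1 and TUSC3 are alternative oxidoreductases of the STT3B form. Magt1 had 32.2 and 21.2 FPKM, a log2 ratio of -0.58 and just short of the 1.5-fold limit, and Tusc3 had 26.3 and 28.9 FPKM, a log2 ratio of 0.13 and the one OST gene above 0. The more abundant of the pair was Magt1 in the control, at 1.22 times Tusc3, and Tusc3 in the antagomir library, where the ratio of Magt1 to Tusc3 was 0.73. Exons of Krtcap2 overlap Trim46 (5.75 and 2.67 FPKM), and those of Rpn2 overlap Mroh8. As a whole OST summed to 626 and 407 FPKM.

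Many of these subunits are small proteins with short mRNAs, and in these libraries the log2 ratio followed length across genes. Over 10171 genes with a coding length, Spearman's rho between the log2 ratio and the longest annotated coding length was -0.29. Over the 35 subunit genes it was -0.65, a description across genes that share libraries and complexes. By longest transcript length rho was -0.30 over all genes and -0.38 over the 35, and by principal transcript length it was -0.65 over the 35. The longest transcript exceeds the principal one in 15 of the 35 genes, for instance 3719 against 1367 nucleotides for Srp9. The members were split at their median coding length of 954 nucleotides. Of the 17 longer genes 16 had log2 ratios below 0, against 61.3% of the 6978 longer genes of the table, 9 (52.9%) were at least 1.5-fold lower, against 15.3%, and 0 were at least 1.5-fold higher, against 5.86%. Of the 18 shorter genes 9 had log2 ratios below 0, against 38.1% of the 3193 shorter genes of the table. Of these 18, 2 (11.1%) were at least 1.5-fold lower, against 9.27%, and 3 (16.7%) were at least 1.5-fold higher, against 21.4%. The 3 higher genes, Srp9, Sec61g and Srp14, have the shortest of these coding lengths among the 35, at 258, 300 and 330 nucleotides. The contrast was smaller where the members were split at their median longest transcript length of 2993 nucleotides. At least 1.5-fold lower were then 5 of 18 shorter and 6 of 17 longer genes, against 13.4% of all genes of any length. At least 1.5-fold higher were 2 shorter and 1 longer, against 10.8%. Shares for genes of like transcript length are not given here. The medians were -0.14 for the shorter and -0.56 for the longer members, against 0.11 and -0.14 for all genes of those classes.

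Short genes were not all alike. Krtcap2, with a coding length of 408 nucleotides, and Srprb, with 807, were the shorter genes that were at least 1.5-fold lower. Sec61b has 421 nucleotides and a log2 ratio of 0.36, and Srp19 has 432 nucleotides and a log2 ratio of -0.43. Among longer genes Srp68, with 1875 nucleotides, and Tusc3, with 1041, had the log2 ratios nearest to 0 or above it. Where genes were cut into 5 equal groups by coding length, the members' median was below that of all genes in each group. It was -0.069 for 14 members against 0.24 for all genes in the shortest group, -0.57 for 8 against 0.036 in the next, -0.59 for 5 against -0.076 in the middle, -0.72 for 7 against -0.12 in the fourth, and -1.14 for Stt3b alone against -0.21 in the longest.

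**Figure D3:**
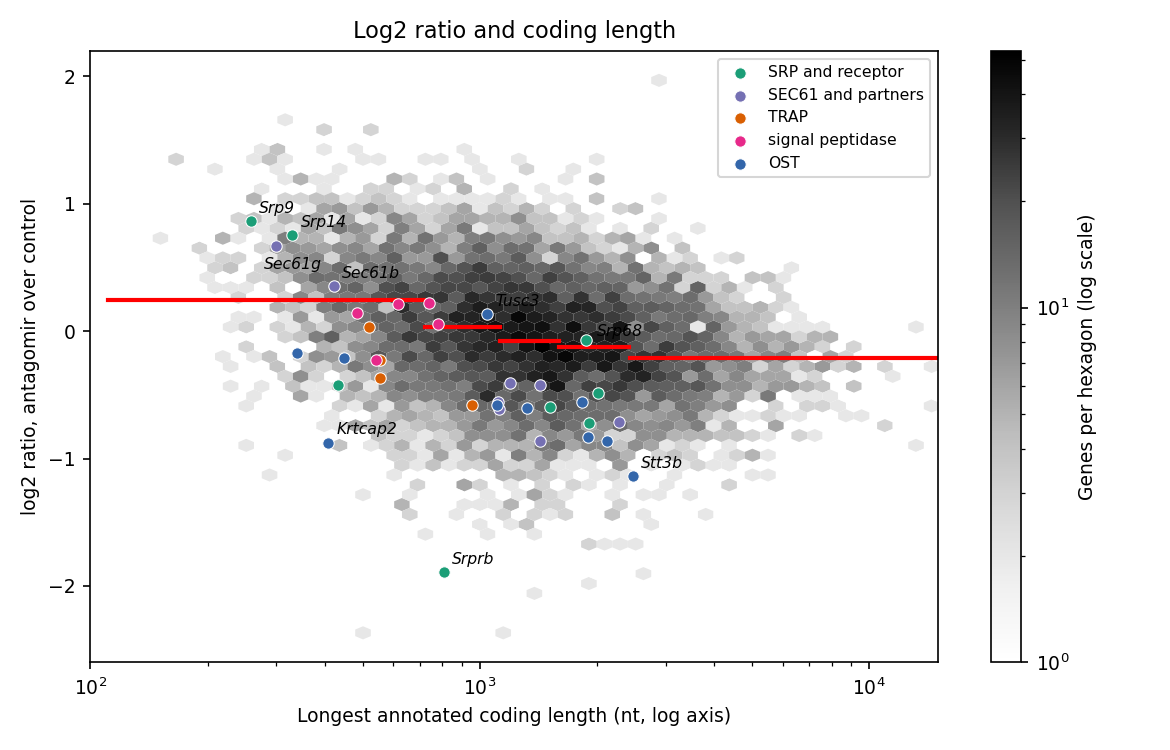
Log2 ratio against the longest annotated coding length (nucleotides, log axis) for all genes tested (grey hexagons, darker for more genes), with red bars at the medians of 5 equal groups of genes by length and the 35 subunit genes as coloured points. The red bars step down from 0.24 to -0.21, and most coloured points lie under the bar of their length, with Srp9, Srp14, Sec61g and Sec61b among those above it.

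With the trend over coding length removed, 0 of 35 were at least 1.5-fold higher, against 8.29% of all genes treated the same way, and more were lower. Srp9 then had a log2 ratio of 0.35, Srp14 of 0.33 and Sec61g of 0.21, and Sec61b was at 0.029. Krtcap2 went from -0.88 to -1.21, Dad1 from -0.17 to -0.58 and Srp19 from -0.43 to -0.74. The count at least 1.5-fold lower was then 15 of 35, against 13.7% of all genes, and the count at least 2-fold lower was 3, with Krtcap2 beside Srprb and Stt3b, against 4.24%. The median of the 35 was -0.52. The count depended on the length used. With the trend over longest transcript length and GC removed, 9 of 35 were at least 1.5-fold lower, against 13.2% of all genes. With that over principal transcript length and GC removed, 10 of 35 were, against 13.3%. The longest annotated coding length exceeds that of the principal transcript in 9 of the 35 genes, for instance 421 against 288 nucleotides for Sec61b. By either length the same genes fell in the shorter and the longer group.

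**Figure D4:**
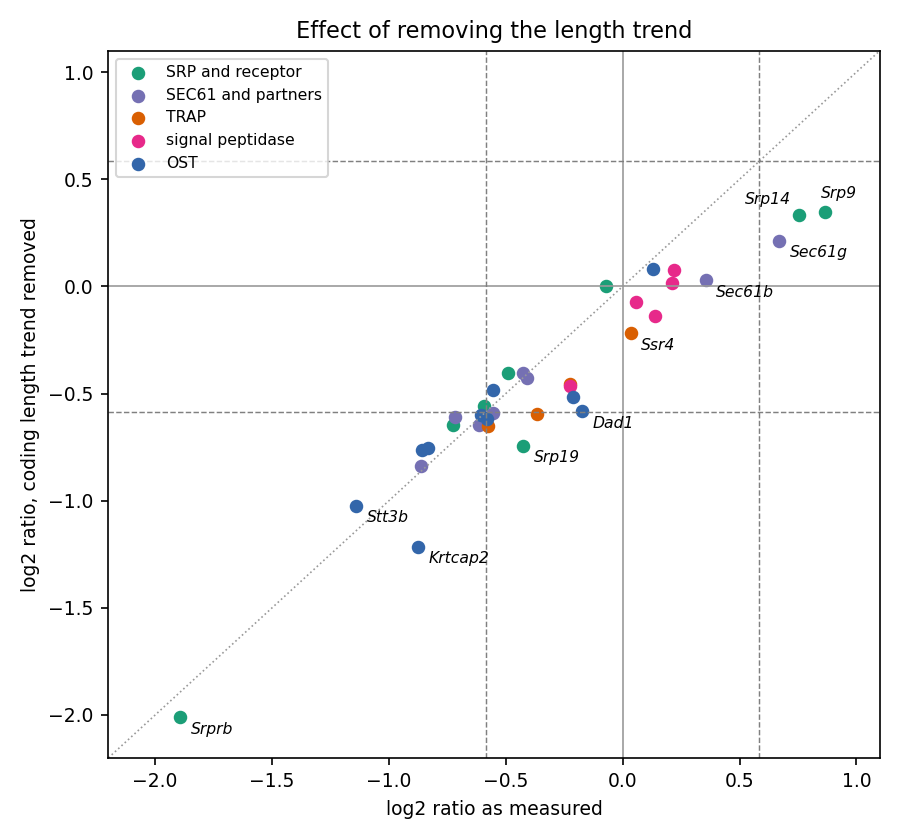
Log2 ratio of each subunit gene as measured (horizontal axis) and with the trend over coding length removed (vertical axis), coloured by complex, with dashed lines at 1.5-fold and a dotted line where both are equal. Long genes such as Stt3b lie on or just above the dotted line, short ones such as Krtcap2 and Srp9 below it, and no point stays above the upper dashed line.

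Exons of 14 of the 35 genes overlap those of another annotated gene on either strand, and strand use in counting is not given in the sources used here. Among the other 21 genes 5 (23.8%) were at least 1.5-fold lower, Srp54a, Tram1, Stt3a, Stt3b and Ddost, and 2 were higher, Srp14 and Sec61g, against 13.4% and 10.8% of all genes. The median of SEC61 and its partners was -0.10 without the genes that overlap. Across 9 other settings in which each gene was valued again, 24 of the 35 genes had log2 ratios below 0 in each, and Srp9, Srp14, Sec61g and Tusc3 were above 0 in each. The sign of the other 7, Sec61b, Srp68, Ssr4, Spcs1, Spcs2, Sec11a and Sec11c, differed between settings. At least 1.5-fold lower in each of the 9 were 7 genes, Srprb, Stt3b, Stt3a, Rpn2, Krtcap2, Sec61a1 and Srpr. Of these genes only Stt3b and Stt3a have no exon overlap with another gene, and leaving out overlapping genes was not among the 9 settings. Settings that change only the pseudocount cannot change a sign, and the same counts over all genes were not made.

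Genes that work beside these complexes were described from 7 further lists. Of 84 such genes tested, 63 had log2 ratios below 0, against 54.0% of all genes. At least 1.5-fold lower were 23 (27.4%), against 13.4%, and at least 1.5-fold higher 5 (5.95%), against 10.8%. Glycan trimming and the calnexin cycle, which act on the glycan that OST has attached, had a median of -0.65, with 8 of 13 genes at least 1.5-fold lower, and of -0.60 with the coding length trend removed. Calr, the soluble lectin chaperone of that cycle, had 422 and 112 FPKM, and Uggt1, its folding sensor, had 13.5 and 6.40 FPKM, whereas Mogs, the glucosidase that makes the first cut, had 13.9 and 12.6 FPKM and Man1b1 had 15.2 and 17.2 FPKM. Accessory factors of the channel had a median of -0.47, with 6 of 14 genes at least 1.5-fold lower. With the coding length trend removed their median was -0.84, below that of the calnexin cycle list, and 9 of 14 were at least 1.5-fold lower, against 13.7% of all genes. Among them Hspa5, for BiP, had 483 and 218 FPKM and Hyou1, its exchange factor, had 33.2 and 7.74 FPKM, while Ncln had 53.1 and 45.8 FPKM and Serp2 had 7.31 and 9.91 FPKM.

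Synthesis of the lipid-linked glycan that OST uses had a median of -0.24. Of its 29 genes 6 were at least 1.5-fold lower, against 13.4% of all genes, and 2 were higher, against 10.8%. Alg12 (9.43 and 2.89 FPKM) and Alg2 (19.3 and 7.44 FPKM), both mannosyltransferases, were 2.68-fold and 2.40-fold lower. Dpm3, a small subunit of dolichol-phosphate mannose synthase with a coding length of 276 nucleotides, was 2.12-fold higher (a log2 ratio of 0.59 with the coding length trend removed) and Dpm1, its catalytic subunit, 1.69-fold higher. Signal peptide peptidase, related proteases and GPI transamidase had a median of -0.45, with Pigt 1.67-fold and Sppl3 1.52-fold lower and Sppl2b and Sppl2a at log2 ratios of 0.29 and -0.12.

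The ER membrane complex, an insertase for multipass and tail-anchored proteins, had a median of -0.22. None of its 10 genes was 1.5-fold lower, against 13.4% of all genes, and Emc9 was 1.66-fold higher. The lowest genes of the complex were Emc1 and Emc7, at -0.54 and -0.53, and Emc6 was at 0.28. With the coding length trend removed the complex had a median of -0.36, and 2 of the 10 genes were at least 1.5-fold lower, against 13.7%. Emc9, at 0.54, was then under 1.5-fold higher. The GET and SND routes, which bypass SRP, had a median of 0.06 over 7 genes, with Bag6 1.59-fold lower, Sgta at a log2 ratio of -0.18, and Ubl4a 2.04-fold and Tmem208 1.51-fold higher. With the coding length trend removed Bag6, at -0.51, and Tmem208, at 0.34, were within 1.5-fold, and Ubl4a, at 0.74, was within 2-fold. Further subunits of the complexes themselves were Ost4, with a coding length of 111 nucleotides, at 70.9 and 100.2 FPKM, Tmem258, at 26.1 and 23.8 FPKM, and the line listed as Srp54b. With the coding length trend removed Ost4 went from a log2 ratio of 0.49 to -0.43, and Tmem258 from -0.13 to -0.68. Exons of Ost4, Tmem258, Emc1, Emc7, Emc9, Ubl4a, Tmem208, Dpm1, Man1b1 and Sppl3 overlap another annotated gene, so their values carry the same uncertainty as those of the overlapping subunits.

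**Figure D5:**
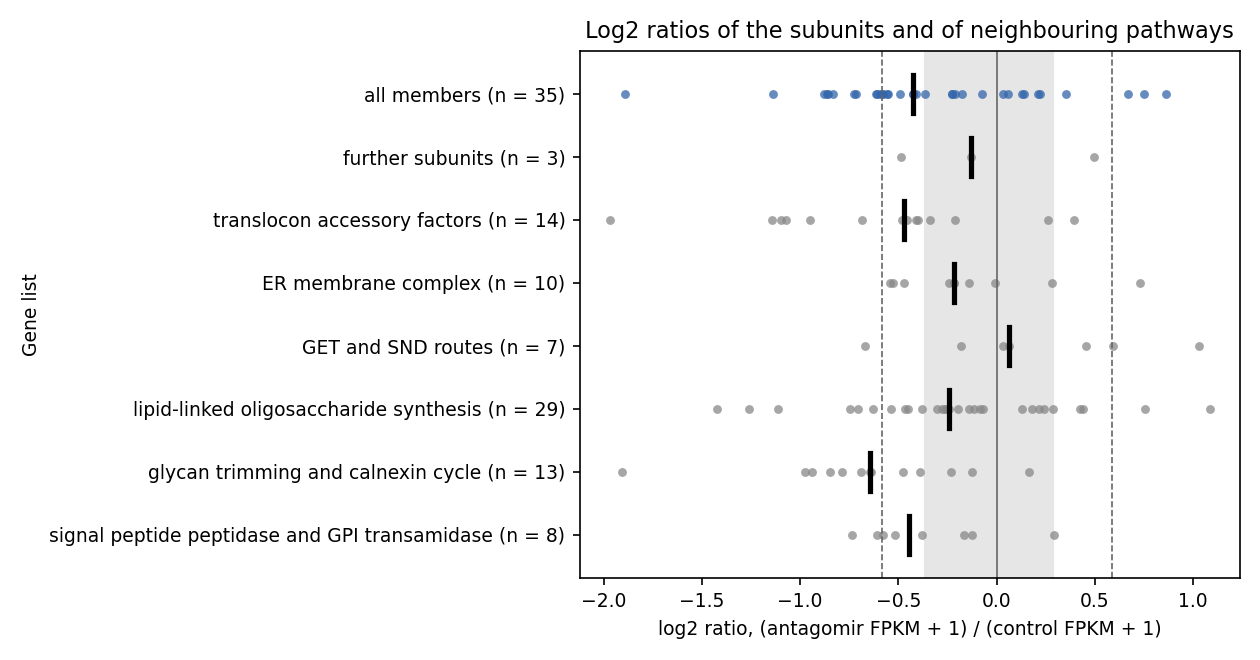
Log2 ratios of the 35 subunit genes (blue) and of 7 lists of neighbouring pathways (grey), 1 point per gene, with black bars at the medians, dashed lines at 1.5-fold and a grey band for the middle 50% of all genes tested. The medians run from -0.65 for glycan trimming and the calnexin cycle to 0.06 for the GET and SND routes, with the 35 genes at -0.42.

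Promoters were read for motifs of the unfolded protein response, since most of the 35 genes lay on one side of 0. RefSeq windows from 250 bases before to 50 after the start, on build GRCm38.p6, were given for 26 of the 35 genes and for 7975 of the genes tested. The ER stress response element, CCAAT and CCACG with 9 free bases between them, was in no member's window and in 0.150% of all genes' windows, on either strand. The UPRE, TGACGTGG, the ATF4 composite element, TTGCATCA, and the cyclic AMP response element, TGACGTCA, were in no member's window either, against 1.09%, 0.777% and 3.95% of all genes. Motifs this rare would often be missing from any 26 windows, so their absence cannot be read as a result about the members. The second form of the ER stress element, ATTGG and CCACG with 1 free base between them, was in 1 of 26, Krtcap2, against 8 of the 7975 genes. CCACG, the letters at the end of both forms of the ER stress element and so counted within them too, was in 17 of 26 (65.4%) against 53.6% of all genes. It was in 7 of the 9 members with a window that were at least 1.5-fold lower, in 1 of the 3 that were higher and in 9 of the other 14. Its share among all genes of each of these classes was not computed, and a link between the letters and the log2 ratio was not tested.

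Stretches are shown for Krtcap2, with the one match to an ER stress element, for Srprb, the gene with the lowest log2 ratio, and for Stt3b, Sec63 and Srp9, as 2 lower genes and the highest one whose upstream bases hold no annotated exon. Each of these stretches holds CCACG, and none is shown for a member whose window lacks it. Capitals mark the second form of the ER stress element in Krtcap2 and CCACG, on either strand, in the others. The Krtcap2 stretch is chr3:89246481-89246510, plus strand, 8 to 37 bases after an annotated start in an exon of Krtcap2, and the Srprb stretch is chr9:103202095-103202124, minus strand, 59 to 30 bases before the start in annotated exons of Srprb and Gm20425. The other stretches are the 250 bases before the start, Stt3b at chr9:115310469-115310718, minus strand, Sec63 at chr10:42761246-42761495, plus strand, and Srp9 at chr1:182124487-182124736, plus strand.
Krtcap2: gggacacggATTGGACCACGgacggggcgt
Srprb: ccaCCACGgCGTGGagcctagagCCACGta
Stt3b: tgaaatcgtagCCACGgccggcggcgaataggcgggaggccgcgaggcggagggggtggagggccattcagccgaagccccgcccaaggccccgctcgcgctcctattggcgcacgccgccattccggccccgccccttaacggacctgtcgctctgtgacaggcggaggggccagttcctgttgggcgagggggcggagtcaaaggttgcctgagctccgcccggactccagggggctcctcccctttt
Sec63: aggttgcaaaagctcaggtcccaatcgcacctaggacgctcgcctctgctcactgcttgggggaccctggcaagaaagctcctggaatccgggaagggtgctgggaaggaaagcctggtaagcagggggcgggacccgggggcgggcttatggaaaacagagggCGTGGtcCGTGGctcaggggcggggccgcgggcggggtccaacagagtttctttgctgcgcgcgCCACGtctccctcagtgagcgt
Srp9: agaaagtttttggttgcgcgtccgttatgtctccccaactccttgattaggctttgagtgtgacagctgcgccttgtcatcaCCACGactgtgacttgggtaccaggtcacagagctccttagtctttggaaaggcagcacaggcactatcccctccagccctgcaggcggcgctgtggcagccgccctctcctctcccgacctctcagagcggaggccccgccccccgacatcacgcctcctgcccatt
The Srprb stretch was cut around its 3 matches to CCACG, so its density cannot be set against that of the 250-base stretches. Srp9, which was higher, and Stt3b, which was lower, each hold it once in 250 bases, and Sec63, also lower, holds it 3 times. CCACG, on either strand, also lay at several places in the window of Spcs1, which had a log2 ratio of 0.14. A match gives letters only, and binding was not measured here.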

How the data were processed

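RNA was measured in 2 libraries, grouped by sample title. Per the labels' protocols, TRIzol RNA went through poly(A) isolation and a KAPA stranded library kit, and steps of adaptor ligation are also listed. The authors deposited FPKM per gene, and each line's gene type is protein coding, per the file headers. Cutadapt, HISAT2 and StringTie 1.3.3 were used with GRCm38, per the submitters' processing notes. The sources used here do not name the annotation, settings or strand use. Lines with the same symbol were summed. Whole-read steps were searched for in low values of single-transcript genes. At best 40% of control and 34.8% of antagomir values fell within 0.1 of a whole number, where even spacing gives 20%, so depth is unknown and no counting interval is given.

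Log2 ratios used a pseudocount of 1 FPKM. Genes that reached 1 FPKM in either library were compared at limits of 1.5-fold and 2-fold. Lengths, GC content and exon overlaps came from GENCODE M21 on the same build, which held 10982 of the 10992 identifiers. Length trends were removed by least squares with linear and squared terms. Coding sequences of principal (APPRIS) transcripts were aligned with Biopython 1.88, in place of the proteins that had been planned. The computation, in Python 3.11.15 using numpy 2.4.6 and pandas 2.3.3, was tested on simulated data.

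The subunits, gene lists and settings were chosen with earlier results of these data known. All 35 subunits were named, and of each other list up to 2 genes at either end among those reaching 5 FPKM. Genes that overlap a named gene, and a few cell markers, were named beside it. Alternatives were other pseudocounts, minimums and scalings, removal of length trends, and leaving out overlapping genes.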

Additional observations from a re-analysis of the deposited data

How the results depend on the processing

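The median of the 35 genes stayed between -0.53 and -0.37 under 13 alternatives, 3 of them (both corrections by principal transcript, and lines left unsummed) chosen after seeing the data. The count at least 1.5-fold lower, 11, was 17 of 35 as TPM, where the share of all genes went from 13.4% to 19.97%. It was 8 of 35 with ratios centred on the median of all genes, against 11.6%, where Srp54a, Tram1 and Ddost fell short of the limit. It was 9 of 35 after correction for longest transcript length and GC, against 13.2%. Without genes that overlap another it was 5 of 21, the count at least 2-fold lower was 1 and the SEC61 median -0.10. The count at least 1.5-fold higher, 3, was 1, Srp9, after correction for longest transcript length and GC or for principal transcript length and GC. It was 0 with either coding length trend removed. The TRAP median was -0.53 with the coding length trend removed and -0.52 with that of the principal coding length. The signal peptidase median, 0.14, was 0.059 as TPM, 0.083 after rescaling without mitochondrial, hemoglobin and ribosomal protein genes and 0.081 after correction for longest transcript length and GC. It turned to -0.071 with the coding length trend, to -0.085 with the principal transcript length and GC trend and to -0.11 with the principal coding length trend removed. No paired analysis was possible because each group had 1 sample. Depth is unknown, so genes at low FPKM such as Sec61a2 and Tram2 have an error that cannot be given.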
